A study of Mus musculus with 72 samples.

Results

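The 10 mouse genes of the interferon gamma response described here are the chemokines Cxcl9 and Cxcl10, the tryptophan-degrading enzyme Ido1, the immunity-related GTPases Iigp1, Igtp, Irgm1 and Irgm2, and the guanylate binding proteins Gbp2, Gbp3 and Gbp6. They were chosen by name, as 10 of the 18193 genes that the array's annotation gave a symbol, and all 10 were among the 12534 genes that passed a filter on dim signal. Each gene was read from 1 Affymetrix probe set, and its value is a log2 signal, so a difference of 1 is a 2-fold change. The probe sets were 1418652_at (Cxcl9), 1418930_at (Cxcl10), 1420437_at (Ido1), 1419042_at (Iigp1), 1417141_at (Igtp), 1418825_at (Irgm1), 1417793_at (Irgm2), 1418240_at (Gbp2), 1418392_a_at (Gbp3) and 1438676_at (Gbp6). The study asked how blocking TNF, the related cytokine TWEAK, or both, changes the colon in a mouse colitis provoked by trinitrobenzene sulfonic acid (TNBS), a hapten put into the colon.

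The 72 arrays came from as many wild-type Balb/c mice, each labelled as a separate animal, in 2 experiments numbered 7 and 10. All mice with colitis received TNBS at 70 µg per g into the rectum and gave colon on day 4. The combination group (15 mice) received TNFR-Ig, a soluble TNF receptor fusion protein that binds TNF, at 0.3 mg/kg together with the anti-TWEAK antibody mP2D10 at 10 mg/kg. The anti-TWEAK group (14 mice) received mP2D10 at 10 mg/kg, and the TNFR-Ig group (12 mice) received TNFR-Ig at 0.3 mg/kg with no antibody beside it. The control antibody group (15 mice) received an anti-human CD20 antibody at 10 mg/kg, and the untreated group (8 mice) received TNBS and no agent. The naive group (8 mice) received neither TNBS nor an agent and belongs to experiment 10 alone. Agents were injected into the abdomen before TNBS, and RNA came from pieces cut from the frozen, rolled colon, so that fewer cells of a type and less RNA per cell cannot be told apart in any value below. For experiment 7, comparisons with naive mice rest on the model's term for the experiment.

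Interferon gamma is released mainly by T cells and natural killer cells. It binds the receptor of Ifngr1 and Ifngr2, whose kinases Jak1 and Jak2 pass on the signal that turns on a first set of genes, among them the transcription factor Irf1, which acts on further targets. Cxcl9 and Cxcl10 are secreted ligands of Cxcr3, the receptor that draws activated T cells and natural killer cells into tissue, and Cxcl10 also responds to type I interferons and TNF. Ido1 starts the breakdown of tryptophan to kynurenine. The GTPase families protect mouse cells from microbes that live in vacuoles: Iigp1 loads onto the vacuole membrane, Igtp, Irgm1 and Irgm2 guard the cell's own membranes against such loading, and the guanylate binding proteins coat vacuoles and bacteria.

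The promoter windows are shown because the genes share an inducer and moved together from mouse to mouse. RefSeq windows of GRCm38.p6, from 250 bases before to 50 after the gene's start, were present for 7 of the 10 genes, with 2 windows for Gbp3. The windows were searched on both strands for the interferon-stimulated response element written as GAAANNGAAA, for the gamma-activated sequence written as TTCNNNGAA, and for the kappa B consensus. Cxcl10, the gene that differed between combination and control antibody mice, is shown whole (chr5:92348840-92349139, minus strand). Its capitals mark the response element and, after it, both kappa B matches.
Cxcl10: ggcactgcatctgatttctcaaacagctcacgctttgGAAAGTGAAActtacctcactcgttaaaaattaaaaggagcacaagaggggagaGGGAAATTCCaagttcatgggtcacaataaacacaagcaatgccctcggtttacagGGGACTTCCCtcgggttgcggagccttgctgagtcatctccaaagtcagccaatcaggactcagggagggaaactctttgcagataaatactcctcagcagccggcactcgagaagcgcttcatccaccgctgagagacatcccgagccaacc

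The next 5 stretches, each written 5′ to 3′ on the gene's strand, hold the response elements of the GTPase genes. They lie at chr11:58199502-58199551 (Igtp, plus strand), chr11:58214893-58214942 (Irgm2, plus), chr11:48871421-48871470 (Irgm1, minus), chr3:142620584-142620633 (Gbp2, plus) and chr3:142559979-142560028 (Gbp3, plus). In Igtp and Irgm2 the first run of capitals is a gamma-activated sequence and the other run the response element. Irgm1 and Gbp3 each hold 2 overlapping response elements, which form 1 run of capitals. In Gbp2 and Gbp3 the element is on the opposite strand and reads as its reverse complement.
Igtp: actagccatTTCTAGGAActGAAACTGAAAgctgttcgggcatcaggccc
Irgm2: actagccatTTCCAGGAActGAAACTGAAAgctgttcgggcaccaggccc
Irgm1: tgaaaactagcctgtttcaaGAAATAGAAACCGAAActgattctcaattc
Gbp2: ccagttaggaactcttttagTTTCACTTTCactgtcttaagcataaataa
Gbp3: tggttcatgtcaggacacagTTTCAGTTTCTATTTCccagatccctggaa

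The response element was found in 6 of the 7 genes with a window, Cxcl9 being the one without it, and in 3.44% of all 32851 windows. The gamma-activated sequence was found in 2 of the 7 genes, Igtp and Irgm2, and in 8.3% of all windows. The Igtp and Irgm2 stretches shown above hold nearly the same letters, so their matches, of either element, may not be independent of each other. The kappa B consensus was found in 1 of the 7, Cxcl10, with 2 matches, and in 4.51% of all windows. Counted from the gene's start, the first element began at position -213 in Cxcl10, -64 in Irgm2, -59 in Gbp2, -45 in Gbp3, -34 in Igtp and -30 in Irgm1. A match describes letters in the window, and no match says only that these letters were not in it.

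Array medians lay between 4.60 and 4.77, and 37.5% of all values lay within 0.1 of the table's lowest value of 2.08, so that value is a floor. Cxcl9 had an average of 5.42 over the 72 arrays and was at the floor in 2 untreated mice, and the other 9 genes stood clear of the floor in every mouse. A further probe set was present for 4 genes. Its r with the probe set used, over the arrays, was 0.796 for Cxcl9, 0.903 for Gbp6, 0.986 for Iigp1 and 0.988 for Gbp2. The 2 probe sets of Gbp6 ordered untreated and naive mice differently. Untreated mice averaged 7.43 and naive mice 7.76 on the probe set used, against 7.23 and 7.02 on the other. The GTPases are families of similar genes, and signal shared between copies was not separated. The 3′ minus 5′ signal of Actb, a sign of RNA integrity, lay between 0.93 and 1.50, with the highest value in a combination mouse of experiment 10. Its median in experiment 10 was 1.20 in combination, 1.17 in anti-TWEAK and 1.13 in naive mice. It was 1.12 in TNFR-Ig, 1.11 in control antibody and 1.05 in untreated mice. Untreated values there (1.025 to 1.11) did not overlap those of anti-TWEAK mice (1.13 to 1.23) or combination mice (1.12 to 1.50). In experiment 7 the group medians lay between 1.04 (combination) and 1.06 (anti-TWEAK). The part of RNA integrity in the changes below was not tested. Changes below come from limma fitted to all 72 arrays with group and experiment, with Benjamini-Hochberg adjustment over the 12534 genes. A change passed at an adjusted p under 0.05, and each is given with its standard error (SE).

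**Figure D1:**
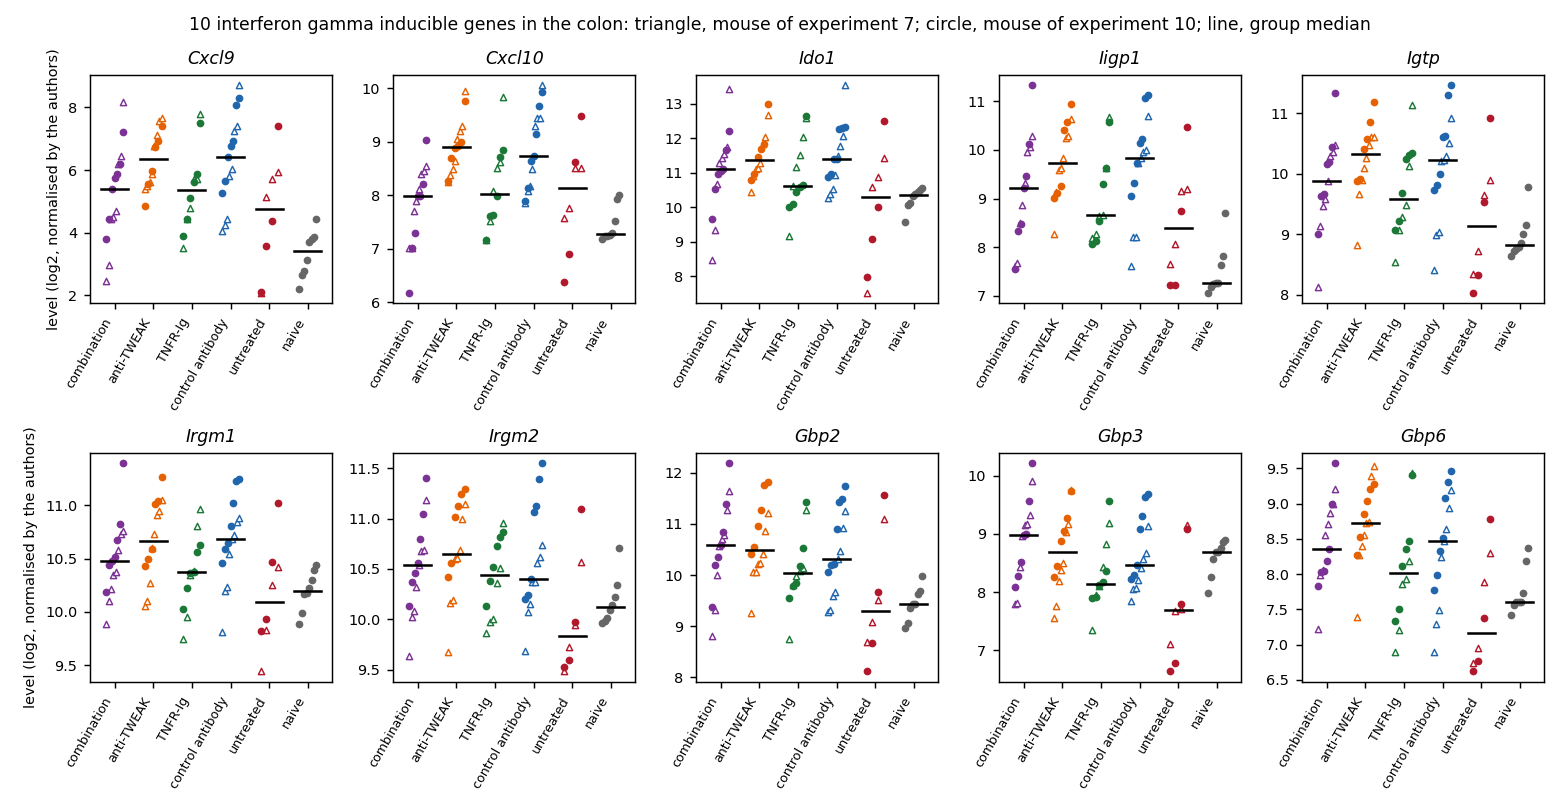
Log2 signal (vertical axes) of the 10 genes in every mouse, by group along the horizontal axes; each symbol is 1 mouse, a triangle for experiment 7 and a circle for experiment 10, and lines are group medians. The 8 untreated mice spread more widely than the 8 naive mice, for Ido1 on both sides of them, between 7.51 and 12.50 in untreated mice against 9.56 to 10.57 in naive mice, and for Iigp1 with no untreated mouse below the lowest naive mouse.

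In the plot of every mouse by group, untreated mice with colitis were spread more widely than naive mice. Cxcl9 was 2.08, 4.77 and 7.41 (lowest, median and highest) in the 8 untreated mice, against 2.20, 3.42 and 4.43 in the 8 naive mice. Iigp1 was 7.22, 8.40 and 10.48 in untreated mice, against 7.06, 7.26 and 8.70 in naive mice. Of the untreated mice, 4 of 8 lay above the highest naive mouse for each of these genes, and the remaining untreated mice overlapped the naive range or, for Cxcl9 in 2 mice, fell under it. Gbp3 was 6.64, 7.69 and 9.15 in untreated mice, against 7.98, 8.68 and 8.89 in naive mice. For Gbp3, 6 of 8 untreated mice lay below the lowest naive mouse and 2 above the highest. Ido1 was 7.51, 10.29 and 12.50 in untreated mice, against 9.56, 10.36 and 10.57 in naive mice, with 4 untreated mice above the naive range and 3 below it. The standard deviation was larger in untreated than in naive mice for each of the 10 genes, for instance 1.72 against 0.33 for Ido1; the difference in spread was not tested.

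None of the 10 genes passed the test in untreated minus naive (limma, 0 of 10, with 2 at an unadjusted p under 0.05), in a comparison that called 47.8% of all genes, 22.2% higher and 25.6% lower. The estimates were positive for 6 and had a median of 0.21, against -0.01 over all genes tested. Iigp1 differed by 1.08 ± 0.49 (SE, adjusted p = 0.0606) and Cxcl9 by 1.34 ± 0.70 (adjusted p = 0.105). Gbp3 differed by -0.73 ± 0.34 (adjusted p = 0.0651), and within experiment 10 it fell by 1.01 ± 0.40 (adjusted p = 0.0372), where 41.9% of all genes were called. The estimates for Irgm2, -0.02 ± 0.22, and Irgm1, 0.07 ± 0.18, were near 0, and those for Cxcl10 (0.45), Igtp (0.41), Gbp2 (0.34), Gbp6 (-0.23) and Ido1 (-0.25) had adjusted p between 0.325 and 0.728. On the further Gbp6 probe set the untreated mean, 7.23, lay above the naive mean, 7.02. With 1 mouse left out the count ranged from 0 to 2. It was 2 without untreated replicate 3 of experiment 7 or 5 of experiment 10. It was 1 without untreated replicate 5 of experiment 7, untreated replicates 1 or 3 of experiment 10, or naive replicates 5 or 6.

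Mice given the control antibody before TNBS had higher levels of 9 of the 10 genes than naive mice, where 52.8% of all genes were called and 28.4% were called higher. Cxcl9 was 4.04, 6.42 and 8.72 in the 15 control antibody mice, against 2.20, 3.42 and 4.43 in naive mice. It was 8.95-fold higher, by 3.16 ± 0.62 (adjusted p = 2.06e-05), and 12 of 15 control antibody mice lay above the highest naive mouse. Iigp1 was 7.61, 9.83 and 11.12 in control antibody mice, against 7.06, 7.26 and 8.70 in naive mice, and it was 4.86-fold higher, by 2.28 ± 0.43 (adjusted p = 1.17e-05). For Iigp1 too, 12 of 15 control antibody mice lay above the naive range and none below it. Cxcl10 was 7.85, 8.73 and 10.06 in control antibody mice, against 7.19, 7.27 and 8.00 in naive mice, and rose by 1.34 ± 0.33 (adjusted p = 0.00048). Of the enzyme and the other GTPases, Ido1 rose by 1.26 (adjusted p = 0.0224), Igtp by 1.39, Gbp2 by 1.26, Gbp6 by 0.73, Irgm1 by 0.59 and Irgm2 by 0.58. Gbp3 was the exception at 0.17 ± 0.30 (adjusted p = 0.643), with 8.46 as the median of control antibody mice and 8.68 as that of naive mice.

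The other groups given an agent were also set against the naive mice, so these comparisons share the same 8 naive arrays. In combination mice 7 of 10 genes rose, beside 25.3% of all genes called and 13.3% called higher. Cxcl9 was 2.47, 5.39 and 8.16 in combination mice, 2.04 ± 0.62 above naive mice (adjusted p = 0.0105), and Iigp1 was 7.54, 9.22 and 11.33, 1.74 ± 0.43 above them (adjusted p = 0.00173). The other 5 were Gbp2 (1.34 ± 0.36), Igtp (1.09 ± 0.33), Gbp6 (0.79 ± 0.30), Irgm2 (0.53 ± 0.19) and Irgm1 (0.43 ± 0.16). Cxcl10 did not pass in combination mice, at 0.26 ± 0.33 (adjusted p = 0.595), and 4 of 15 combination mice lay below the lowest naive mouse while 6 lay above the highest. The count fell to 4 of 10 without combination replicate 1 or 8 of experiment 10, or naive replicate 5, 7 or 8. It was also 4 of 10 within experiment 10, the experiment of the naive mice, beside 29.4% of all genes called there and 16.9% called higher. In anti-TWEAK mice 9 of 10 genes rose, beside 42.7% of all genes called and 22.9% called higher. Cxcl9 was 4.86, 6.37 and 7.66 in anti-TWEAK mice and Cxcl10 was 8.25, 8.90 and 9.95, and all 14 anti-TWEAK mice lay above the naive range for both chemokines. Gbp3 was again the gene that did not pass, at 0.26 ± 0.30 (adjusted p = 0.519). In TNFR-Ig mice 4 of 10 genes rose, beside 43.8% of all genes called and 23.5% called higher. These were Cxcl9 (2.16 ± 0.64), Iigp1 (1.64 ± 0.45), Igtp (0.94 ± 0.34) and Gbp2 (0.90 ± 0.37), and Gbp3 was at -0.15 ± 0.31 (adjusted p = 0.718). Within experiment 10 the count was 2 of 10, Cxcl9 and Iigp1, beside 36.3% of all genes called and 19.4% called higher.

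**Figure D2:**
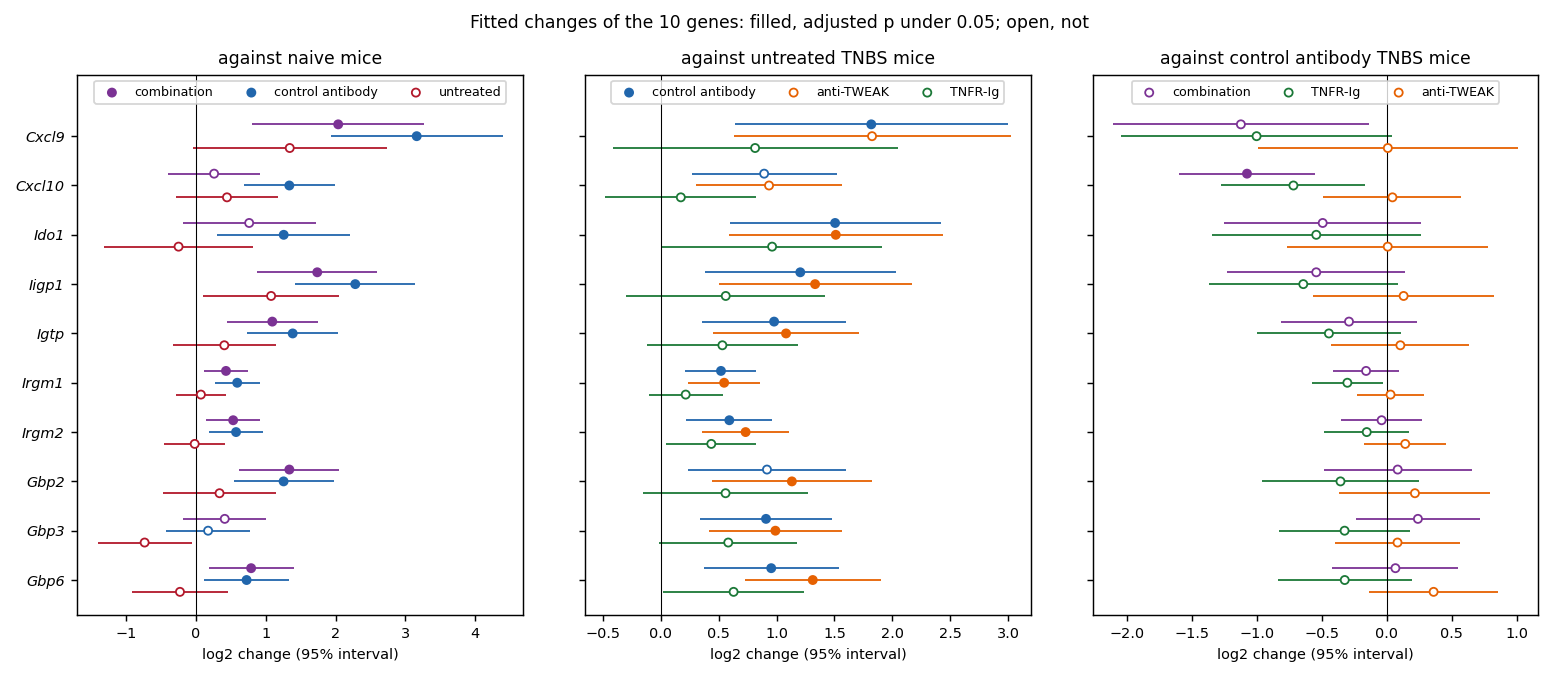
Fitted log2 changes of the 10 genes with 95% intervals, against naive mice (left), untreated mice (middle) and control antibody mice (right); filled symbols passed at an adjusted p under 0.05 and open symbols did not. Cxcl9 has the widest intervals and reaches 3.16 in control antibody minus naive, while in the right panel 1 symbol, Cxcl10 in combination mice at -1.08, is filled.

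The control antibody and untreated groups differ, per the labels, by the antibody, and the comparison shows how these genes stand between 2 groups that both received TNBS. Control antibody mice had higher levels of 8 of the 10 genes than untreated mice, beside 10.3% of all genes called and 4.82% called higher. Ido1 was 10.26, 11.40 and 13.55 in control antibody mice, against 7.51, 10.29 and 12.50 in untreated mice, and was higher by 1.51 ± 0.46 (adjusted p = 0.0268). Gbp6 was 6.89, 8.47 and 9.46 in control antibody mice, against 6.62, 7.17 and 8.78 in untreated mice, and was higher by 0.95 ± 0.29 (adjusted p = 0.0276). Gbp3 was 7.85, 8.46 and 9.69 in control antibody mice, against 6.64, 7.69 and 9.15 in untreated mice, and was higher by 0.91 ± 0.29 (adjusted p = 0.0318). The groups overlapped for each of these 3 genes, with the untreated group reaching lower. Cxcl9 was higher by 1.82 ± 0.59 (adjusted p = 0.0378), Iigp1 by 1.20 ± 0.41 (adjusted p = 0.0477), Igtp by 0.98 ± 0.31 (adjusted p = 0.0346), Irgm2 by 0.59 ± 0.19 (adjusted p = 0.0317) and Irgm1 by 0.52 ± 0.15 (adjusted p = 0.0234). Cxcl10, at 0.89 ± 0.31 (adjusted p = 0.0533), and Gbp2, at 0.92 ± 0.34 (adjusted p = 0.0711), did not pass. The median of the 10 estimates was 0.94, against 0.03 over all genes tested.

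These calls rested on few mice. None passed when the 2 groups were fitted alone. None of the 10 genes passed in limma (10 at an unadjusted p under 0.05 with all mice) once any one of untreated replicates 3 or 5 of experiment 10, or replicate 3 of experiment 7, was left out, 1 passed without untreated replicate 2 of experiment 10, and all 10 passed without its replicate 1. On the other side, 2 passed without control antibody replicate 5 of experiment 10, 3 without its replicate 4 and 5 without control antibody replicate 6 of experiment 7. Within experiment 7 none passed (limma, 0 of 10, with 1 at an unadjusted p under 0.05), beside 2.46% of all genes, and within experiment 10 the 3 genes Gbp3 (1.38 ± 0.41, adjusted p = 0.024), Gbp6 (1.25 ± 0.42, adjusted p = 0.0471) and Irgm2 (0.81 ± 0.27, adjusted p = 0.0452) passed, beside 9.95% called and 6.96% called higher. The change was not shown to differ between the experiments, with 0 of 10 genes called by the interaction term (limma, 0 at an unadjusted p under 0.05) beside 0.016% of all genes. The estimates of all 10 genes were positive in both experiments and with any 1 mouse left out.

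Anti-TWEAK mice also had higher levels than untreated mice for 8 of the 10 genes, beside 6.1% of all genes called and 3.82% called higher, and this comparison shares the untreated arrays with the one before. Gbp6 was 7.39, 8.73 and 9.54 in anti-TWEAK mice, against 6.62, 7.17 and 8.78 in untreated mice, and was higher by 1.31 ± 0.30 (adjusted p = 0.00429). Irgm2 was 9.68, 10.65 and 11.29 in anti-TWEAK mice, against 9.48, 9.83 and 11.10 in untreated mice, and was higher by 0.73 ± 0.19 (adjusted p = 0.0128). The highest untreated mouse lay above the anti-TWEAK median for both genes. The other 6 that passed lay between 0.55 ± 0.16 (Irgm1, adjusted p = 0.0239) and 1.51 ± 0.46 (Ido1, adjusted p = 0.0375), and the chemokines Cxcl9 (1.82 ± 0.60, adjusted p = 0.0523) and Cxcl10 (0.94 ± 0.32, adjusted p = 0.0593) did not pass. Within experiment 7 none passed (limma, 0 of 10, with 7 at an unadjusted p under 0.05), beside 0.207% of all genes, and within experiment 10 the 5 genes Igtp, Irgm2, Gbp2, Gbp3 and Gbp6 passed, beside 21.7% called and 15.7% called higher. Leaving out 1 mouse gave between 2 and 10 calls: 2 without untreated replicate 3 or 5 of experiment 10 or replicate 3 of experiment 7, 3 without untreated replicate 2 of experiment 10, 4 without anti-TWEAK replicate 2 of experiment 10 or 6 of experiment 7, and 5 without anti-TWEAK replicate 3 of experiment 10. With the 2 groups fitted alone 1 gene passed.

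In combination mice 4 GTPase genes stood above untreated mice, and the chemokines and Ido1 did not pass. The 4 were Gbp3 (1.15 ± 0.29, adjusted p = 0.00229), Gbp6 (1.02 ± 0.29, adjusted p = 0.00751), Irgm2 (0.55 ± 0.19, adjusted p = 0.0234) and Gbp2 (1.00 ± 0.34, adjusted p = 0.0255), beside 24.6% of all genes called and 13.9% called higher. Gbp3 was 7.79, 8.99 and 10.21 in combination mice, against 6.64, 7.69 and 9.15 in untreated mice. The combination median lay just below the highest untreated mouse. Cxcl10 was 6.17, 7.98 and 9.04 in combination mice, against 6.37, 8.13 and 9.49 in untreated mice, and differed by -0.18 ± 0.31 (adjusted p = 0.712). The other 5 genes had positive estimates, from 0.36 (Irgm1) to 1.01 (Ido1), with adjusted p between 0.0771 and 0.415. Leaving out 1 mouse gave between 2 and 7 calls, with 2 when untreated replicate 3 or 5 of experiment 10 or replicate 3 of experiment 7 was left out and 7 without untreated replicate 1 of experiment 10 or replicate 5 of experiment 7. It gave 7 also without combination replicates 7 and 8 of experiment 7, whose arrays the labels place in the run of experiment 10. In TNFR-Ig mice all 10 estimates against untreated mice were positive, from 0.17 (Cxcl10) to 0.96 (Ido1), and none passed (limma, 0 of 10, with 3 at an unadjusted p under 0.05), beside 3.01% of all genes.

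The comparisons with the control antibody group ask what blocking TWEAK, or TNF and TWEAK together, did in mice given an antibody. TNFR-Ig mice received no antibody, so for them blocking TNF and the lack of an antibody cannot be told apart. Combination mice had lower Cxcl10 than control antibody mice, and it was the 1 gene of the 10 that passed, beside 31.2% of all genes called and 17% called lower. Cxcl10 was 6.17, 7.98 and 9.04 in combination mice, against 7.85, 8.73 and 10.06 in control antibody mice. The groups overlapped, with the combination median close to the lowest control antibody mouse. Cxcl10 fell by 1.08 ± 0.26 on the log2 scale (adjusted p = 0.00154), a 2.1-fold lower signal. It differed by -0.96 ± 0.37 within experiment 7 (adjusted p = 0.0542), beside 19.8% of all genes called there, and by -1.21 ± 0.39 within experiment 10 (adjusted p = 0.0385), beside 9.69%, and the difference between the experiments did not pass (-0.25 ± 0.54, adjusted p = 0.927). The call held in all 30 fits that left out 1 mouse of either group, with changes between -1.17 and -0.96. No such fit left out both combination replicates 7 and 8 of experiment 7, whose arrays the labels place in the run of experiment 10. These 2 had the lowest Cxcl10 of the combination mice of experiment 7, 7.02 and 7.01, with the next at 7.70.

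Cxcl9, the other Cxcr3 ligand, was 2.47, 5.39 and 8.16 in combination mice, against 4.04, 6.42 and 8.72 in control antibody mice. Its change of -1.12 ± 0.49 did not pass (adjusted p = 0.0724), although it was as large as that of Cxcl10, and its standard deviations of 1.55 in combination mice and 1.47 in control antibody mice were wider than those of Cxcl10, 0.75 and 0.76. Cxcl9 passed in 5 of the 30 fits that left out 1 mouse, those without combination replicate 1 of either experiment or without control antibody replicate 3, 4 or 7 of experiment 7. Iigp1 (-0.54), Ido1 (-0.49), Igtp (-0.29), Irgm1 (-0.16) and Irgm2 (-0.04) did not pass, with adjusted p between 0.227 and 0.867. The guanylate binding proteins lay on the other side of 0, at 0.24 ± 0.24 for Gbp3 (95% interval -0.24 to 0.71), 0.08 ± 0.29 for Gbp2 (-0.49 to 0.65) and 0.06 ± 0.24 for Gbp6 (-0.42 to 0.55), and did not pass. The sign turned in 2 of the 30 fits for Gbp2 and in 3 for Gbp6, and within experiment 10 all 10 estimates were negative. The further Gbp6 probe set had the other order, with a mean of 8.02 in combination mice and 8.28 in control antibody mice. That of Gbp2 kept the order, with means of 10.14 and 10.06. The lowest means over the 10 genes among the combination mice of experiment 7 were those of the 2 arrays placed in the other run, 7.90 in replicate 7 and 7.95 in replicate 8.

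Neither agent alone moved any of the 10 genes past the threshold against the control antibody. For TNFR-Ig this comparison also differs by the antibody, which TNFR-Ig mice did not receive. In TNFR-Ig minus control antibody all 10 estimates were negative, from -1.003 ± 0.523 (Cxcl9, adjusted p = 0.26) to -0.16 (Irgm2), and none passed (limma, 0 of 10, with 2 at an unadjusted p under 0.05), beside 4.08% of all genes. Cxcl10 was 7.16, 8.03 and 9.84 in TNFR-Ig mice, against 7.85, 8.73 and 10.06 in control antibody mice, a difference of -0.72 ± 0.28 (adjusted p = 0.117, 95% interval -1.27 to -0.17), and 1 gene passed when TNFR-Ig replicate 2 of experiment 7 was left out. In anti-TWEAK minus control antibody all 10 estimates lay between 0.01 and 0.36, and none passed (limma, 0 of 10, with 0 at an unadjusted p under 0.05), beside 2.8% of all genes. Cxcl10 in anti-TWEAK mice, with a median of 8.90, stood beside a median of 8.73 in control antibody mice.

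The combination was also set against each agent. In combination minus anti-TWEAK, Cxcl10 differed by -1.12 ± 0.27 (adjusted p = 0.0901) and Cxcl9 by -1.13 ± 0.50 (adjusted p = 0.235). None of the 10 passed (limma, 0 of 10, with 2 at an unadjusted p under 0.05), and 0% of all genes did. Cxcl10 passed in 4 of the 29 fits that left out 1 mouse, those without anti-TWEAK replicate 7 or combination replicate 1 of experiment 7, or combination replicate 1 or 2 of experiment 10. In combination minus TNFR-Ig none of the 10 passed (limma, 0 of 10, with 1 at an unadjusted p under 0.05), beside 6.71% of all genes, and Gbp3 lay at 0.56 ± 0.25 (adjusted p = 0.16). In anti-TWEAK minus TNFR-Ig all 10 estimates were positive, from 0.30 to 1.01, none passed (limma, 0 of 10, with 4 at an unadjusted p under 0.05), and 0% of all genes did. The departure of the combination from the sum of its agents, both counted from control antibody mice, lay between -0.40 and 0.48 and passed for none (limma, 0 of 10, with 0 at an unadjusted p under 0.05), beside 0.319% of all genes. Counted from untreated mice it was negative for all 10, from -1.95 to -0.40, and passed for none (limma, 0 of 10, with 7 at an unadjusted p under 0.05), beside 0.71% of all genes. TNFR-Ig mice received no antibody, while combination, anti-TWEAK and control antibody mice did. Any effect of receiving an antibody therefore enters the departure counted from control antibody mice. There it cannot be told apart from a departure of the agents from their sum. Counted from untreated mice, an antibody effect cancels if it adds on the log2 scale and is equal in anti-TWEAK and combination mice. Whether it does so was not tested. Differences between experiment 10 and experiment 7 in the change against control antibody passed for none of the 10 in any group (limma, 0 of 10 at an unadjusted p under 0.05 in each), beside 0.0319% of all genes for the combination, 1.72% for anti-TWEAK and 0% for TNFR-Ig.

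The order of the 6 group means was taken over both experiments, without adjustment for the experiment. In it anti-TWEAK mice had the highest mean for 8 of the genes, control antibody mice for Cxcl9 and combination mice for Gbp3. Untreated mice had the lowest mean for Ido1, Irgm1, Irgm2, Gbp3 and Gbp6, and naive mice for Cxcl9, Cxcl10, Iigp1, Igtp and Gbp2. On the further Gbp6 probe set naive mice had the lowest mean, 7.02, against 7.23 in untreated mice. The fits adjust for the experiment and can turn a small difference. Irgm1 was at 0.07 in fitted untreated minus naive, and Cxcl9 at 0.007 in fitted anti-TWEAK minus control antibody, both against this order. Of the 50 pairs of neighbours in these orders 0 passed in limma, with 3 at an unadjusted p under 0.05, which does not show that their levels were alike. These 3 were Iigp1 in untreated minus naive (adjusted p = 0.0606), Irgm2 in TNFR-Ig minus naive (adjusted p = 0.0833) and Cxcl10 in TNFR-Ig minus control antibody (adjusted p = 0.117).

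**Figure D3:**
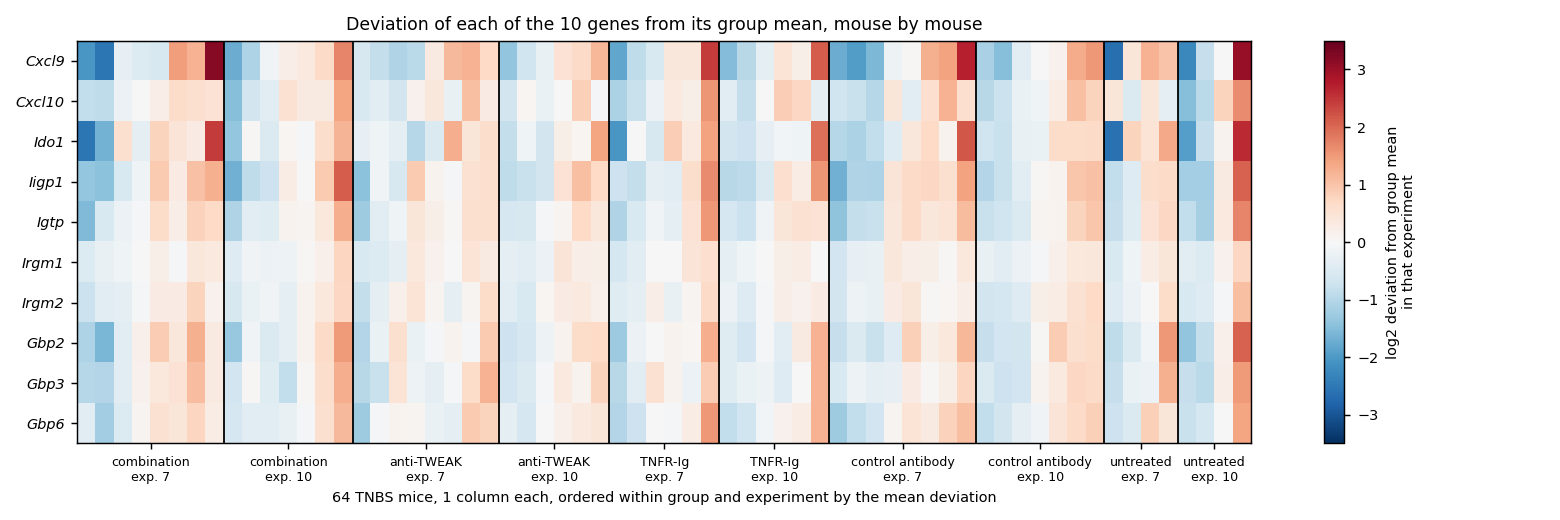
Log2 deviation of each gene (down the page) from its group mean in that experiment, in each of the 64 TNBS mice (columns, ordered within group and experiment by their mean deviation), with red above and blue below the mean. Columns are mostly of 1 colour from top to bottom, as in untreated replicate 1 of experiment 10 at the right edge, which was the highest of its 4 mice for all 10 genes.

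The map of deviations by mouse shows that the genes went up and down together within a group. Untreated replicate 1 of experiment 10 was the highest of its 4 mice for all 10 genes, with a mean over the genes of 10.2, and the other 3 mice had means of 8.66, 7.63 and 7.30. In experiment 7 the 4 untreated mice had means of 8.37, 8.95, 7.56 and 9.31. TNFR-Ig replicate 2 of experiment 7 was the highest of its 6 mice for all 10 genes, and replicate 1 the lowest for 9. Combination replicate 1 of experiment 10 was the highest of its 7 mice for all 10 genes, and replicate 7 the lowest for 9. Over the 64 TNBS mice, with each group-by-experiment mean taken off, the 45 pairwise Pearson correlations lay between 0.587 (Cxcl10 with Ido1) and 0.953, with a median of 0.814. Cxcl10 was on average the least alike to the others, at 0.723, and Igtp the most alike, at 0.868. These points share arrays and colon pieces, and the correlations are a description.

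The genes whose pattern was most like the 10, by their mean correlation with them over the same 64 arrays, were Ifi47 (0.857), a GTPase of the Igtp family, Tap1 (0.844), which carries peptides to MHC class I, Nlrc5 (0.823), the activator of MHC class I genes, Gbp7 (0.816), a further guanylate binding protein, and Psmb9 (0.806), an immunoproteasome subunit. The median over the other 12524 genes was 0.01. Genes named only by a Gm number or a Rik clone name were left out of the ranking but not out of this median. Promoter windows were present for 4 of these 5 genes, and Gbp7 was the one that held the response element and the gamma-activated sequence.

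The rest of the pathway was read from lists of genes with known roles. Ifng itself, and Socs1, a feedback inhibitor, were within 0.1 of the floor on all 72 arrays, so that the level of the cytokine's transcript was not measurable here. Cxcl11, the other ligand of Cxcr3, was within 0.1 of the floor on 61 arrays, and Cxcr3 differed by 0.15 ± 0.12 in control antibody minus untreated (adjusted p = 0.456). Of the 24 genes of the receptor and signalling list 12 were tested. In untreated minus naive 3 of the 12 rose and 4 fell, shares near the 22.2% and 25.6% over all genes, with a median of -0.03. Socs3, an inhibitor of cytokine signalling that is also induced by interleukin 6, rose by 2.67 ± 0.39 and Nlrc5 by 0.94 ± 0.29, while Irf1 fell by 0.61 ± 0.14 and the receptor chains Ifngr2 and Ifngr1 fell by 0.30 ± 0.11 and 0.24 ± 0.06. In control antibody minus untreated 2 rose and 0 fell, with a median of 0.06, beside 4.82% of all genes called higher. These were Irf1, by 0.59 ± 0.12, and Irf8, a transcription factor of myeloid cells, by 0.35 ± 0.08. In combination minus control antibody Socs3 fell by 0.84 ± 0.27 and Jak2 rose by 0.13.

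Related gene groups moved as follows, beside 4.82% of all genes called higher in control antibody minus untreated. Of 4 other GTPases tested, of 15 listed, 3 rose in control antibody minus untreated (Gbp8 by 1.46 ± 0.30, Ifi47 by 0.79 ± 0.22 and Gbp7 by 0.49 ± 0.14), with a median over the 4 of 0.75. None of the 4 passed in untreated minus naive (median -0.01) or in combination minus control antibody (median -0.09). Of 16 genes of antigen processing tested, of 19 listed, 0 rose in untreated minus naive and 4 fell, a share near the 25.6% over all genes (median -0.13), and 6 rose and 0 fell in control antibody minus untreated (median 0.32), led by the peptide transporter Tap1 (0.90 ± 0.27) and the immunoproteasome subunits Psmb9 (0.62) and Psmb8 (0.55). In combination minus control antibody, where 14.2% of all genes were called higher, 5 of the 16 rose, among them the MHC class II genes H2-Eb1 (0.47), H2-Aa (0.41) and H2-Ab1 (0.38). Of 20 genes known for their response to type I interferons, of 24 listed, 17 fell and 0 rose in untreated minus naive, with a median of -0.93. Ifit1, which binds foreign RNA, fell by 2.07 ± 0.52 and Irf7, a transcription factor of that response, by 1.67. In control antibody minus untreated 3 of these 20 rose and 0 fell, with a median of 0.48, against 0.03 over all genes. A further list of 16 genes, 7 of them tested, joins tryptophan breakdown with other uses of tryptophan and with the aryl hydrocarbon receptor and its targets. The largest change in it was in Cyp1b1, an enzyme induced by that receptor and not part of tryptophan breakdown. Cyp1b1 was higher by 5.34 in untreated minus naive and lower in control antibody minus untreated (-3.72 ± 0.91). In untreated minus naive the enzymes Kyat1 and Kyat3 fell by 0.95 ± 0.23 and 0.95 ± 0.18, and Wars rose by 0.55 ± 0.11. The kynurenine enzymes Kynu, Haao and Qprt were within 0.1 of the floor on all 72 arrays.

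**Figure D4:**
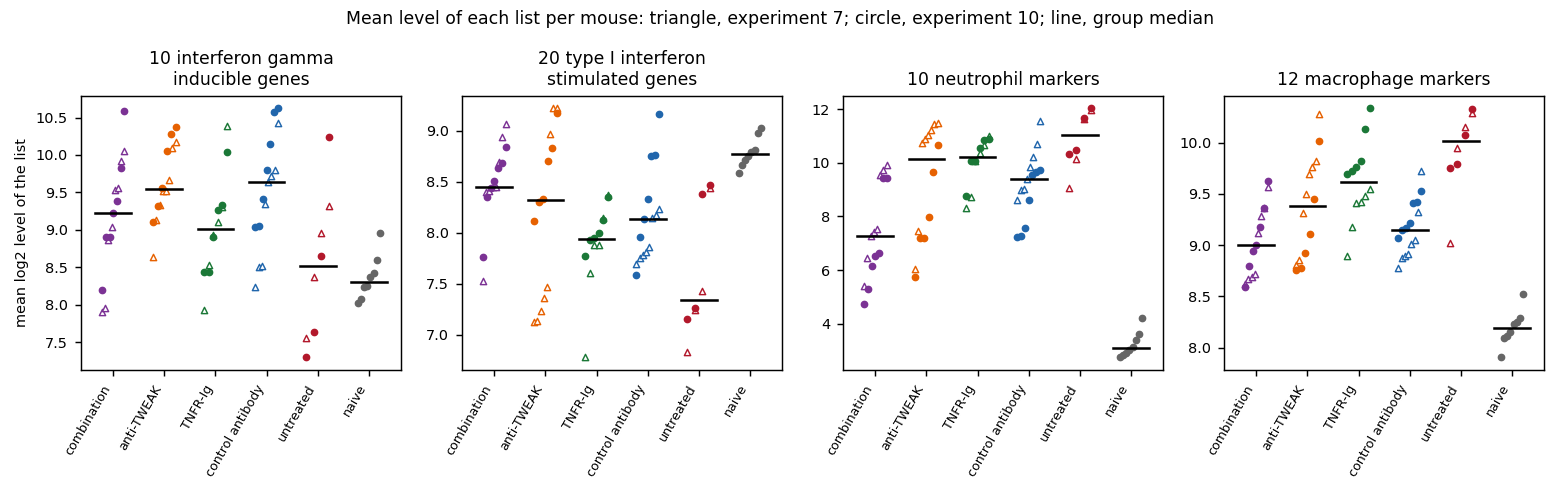
Mean log2 level per mouse of the 10 genes, of 20 type I interferon stimulated genes, of 10 neutrophil markers and of 12 macrophage markers, by group; triangles are mice of experiment 7, circles mice of experiment 10, and lines group medians. Neutrophil markers separate untreated mice (9.07 to 12.04) from naive mice (2.76 to 4.24) without overlap, while the mean of the 10 genes overlaps between untreated mice (7.30 to 10.23) and naive mice (8.02 to 8.96).

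Markers of the cells that a colon piece can hold are shown in the plot of list levels. The mean of the 10 neutrophil markers tested lay between 9.07 and 12.04 in untreated mice and between 2.76 and 4.24 in naive mice. All 10 rose in untreated minus naive, beside 22.2% of all genes called higher. They had a mean level of 4.73 to 9.90 in combination mice and 7.23 to 11.54 in control antibody mice. Of these markers 8 of 10 fell in combination minus control antibody, the comparison in which Cxcl10 fell, beside 17% of all genes called lower. The 12 macrophage markers lay between 8.77 and 9.73 in control antibody mice and between 9.02 and 10.33 in untreated mice, and 10 of 12 fell in control antibody minus untreated, beside 5.52% of all genes called lower, where the 8 genes above were higher, as did 3 of the 10 neutrophil markers. In combination minus untreated, where 4 GTPase genes were higher, all 10 neutrophil markers and 11 of 12 macrophage markers fell, beside 10.6% of all genes called lower. In the same comparison 13.9% of all genes were called higher. Of the T cell and natural killer cell markers 3 of 8 rose, as did 1 of 2 dendritic cell markers. Of the type I interferon stimulated genes 17 of 20 rose. The T cell and natural killer cell markers, 8 of them tested, lay between 4.92 and 6.81 in combination mice, 4.47 and 6.47 in control antibody mice, 4.22 and 6.12 in untreated mice, and 4.80 and 5.97 in naive mice. Of these 8 markers, 4 rose in combination minus control antibody, beside 14.2% of all genes called higher. In control antibody minus untreated 1 rose, beside 4.82% called higher. In untreated minus naive 0 were called, beside 47.8% called in either direction. The defining markers Cd8b1 and Ncr1 were within 0.1 of the floor on all 72 arrays, and Cd4 on 70. Of the dendritic cell list, Xcr1 and Cd209a were that low on all 72, Batf3 on 71, Ccr7 on 68 and Flt3 on 67. The 2 tested were Itgax and Zbtb46. Across the 64 TNBS mice the mean of the 10 genes had r of 0.01 with the macrophage list, 0.06 with the neutrophil list, 0.10 with the colonocyte list, 0.30 with the T and natural killer cell list and 0.41 with the dendritic cell list of 2 genes. Without the 2 farthest mice of each list these were 0.06, 0.08, -0.06, 0.19 and 0.29. Within experiment 7 the dendritic cell list gave 0.33, and within experiment 10 it gave 0.52. The part of these cells in the changes of the 10 genes was not tested.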

How the data were processed

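The deposited table holds log2 expression values of 45101 probe sets on 72 arrays, normalised by the authors before deposit. The submitters' processing notes name RMA, GCRMA, R 2.11.1 and limma 3.4.5, but no label or header says which of them produced these values. The many values at a floor of 2.08 lose any order among low signals. Of the probe sets, 34945 had 1 gene symbol, 932 had several and 9160 had none, and 64 were controls. For each of 18193 genes the probe set with the highest mean over all arrays was kept, and 12534 genes with a mean above 2.42, the 40th percentile, were tested.

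Comparisons used limma 3.58.1 in R 4.3.3 (group plus experiment, all arrays, two-sided, Benjamini-Hochberg), with a second fit of the 11 group-by-experiment means for values within an experiment and for differences between experiments. The procedure was tested on simulated data. Figures were drawn with matplotlib 3.10.9. The number of arrays limits the precision. Naive replicate 1 carries a treatment label that its title and source name contradict, and it was kept as naive. The 10 genes, the lists and the genes named were chosen with earlier results of these data known. All 10 genes are described in each comparison, and the genes named from a list are among its 4 largest calls. The 5 most alike genes are those with the highest mean correlation among genes not named by a Gm number or a Rik clone name. Comparisons of anti-TWEAK and TNFR-Ig with naive mice and with each other, and fits within 1 experiment or without some arrays, were among the alternatives tried.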

Additional observations from a re-analysis of the deposited data

Results flagged for a closer look

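A mouse far from the others of its group and experiment was found in 4 of 110 tests by Dixon's criterion, which chance meets in about 1 in 20 groups. In the 6 TNFR-Ig mice of experiment 10, replicate 1 had an Ido1 level of 12.66, with the next at 10.64, and a Gbp3 level of 9.57, with the next at 8.37. In the 8 naive mice, replicate 6 had an Iigp1 level of 8.70, with the next at 7.83, and an Igtp level of 9.78, with the next at 9.16.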

How the results depend on the processing

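No result changed its sign while called. Counts below are of the 10 genes passing. In untreated minus naive the count of 0 became 1 (Gbp3, lower) with no experiment term, with the replicate block, in experiment 10 alone, with array weights and without the 2 combination arrays of the other run. In combination minus naive 7 became 4 with every single-symbol probe set and 4 with no experiment term, and in TNFR-Ig minus naive 4 became 2 with no experiment term and 2 in experiment 10 alone. In control antibody minus untreated 8 became 5 with every probe set, 5 with no experiment term, and 0 in experiment 7 alone or with the compared groups alone. In anti-TWEAK minus untreated 8 became 5 with every probe set, 0 in experiment 7 alone and 1 with the compared groups alone. In combination minus untreated 4 became 7 with the replicate block or without the 2 arrays of the other run, 0 in experiment 7 alone, and 2 in experiment 10 alone or with the compared groups alone. In combination minus control antibody 1 became 0 in experiment 7 alone, and in combination minus anti-TWEAK 0 became 1 with the replicate block and with array weights. Fewer mice enter the fits of 1 experiment; the other causes were not tested.

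With 1 mouse left out the counts ranged from 0 to 2 in untreated minus naive, 4 to 7 in combination minus naive, 3 to 5 in TNFR-Ig minus naive, 0 to 10 in control antibody minus untreated, 2 to 10 in anti-TWEAK minus untreated, 2 to 7 in combination minus untreated, 1 to 2 in combination minus control antibody, 0 to 1 in TNFR-Ig minus control antibody and 0 to 1 in combination minus anti-TWEAK. For single genes, 350 alternatives kept the call and 78 lost it.

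Replicate numbers did not pair the mice: over 132 pairs of arrays with the same number in 1 experiment, deviations correlated between -0.541 and 0.552 (median -0.005), 48 of them over 0.1. The replicate block changed no other call count of the 10 genes by over 1.5 times. Over all genes, control antibody minus untreated called 1296 genes, against 6 in experiment 7 alone, 2237 in experiment 10 alone, 711 with the compared groups alone and 824 with the block. Anti-TWEAK minus untreated called 765, against 0, 3723, 235 and 303 under the same settings, and combination minus untreated 3079, against 876, 3046, 1977 and 1928. Combination minus control antibody called 3908, against 1059 in experiment 7 alone and 2200 in experiment 10 alone, and combination minus anti-TWEAK 0, against 305 with array weights, 61 in experiment 7 alone and 7 with the block. TNFR-Ig minus control antibody called 512, against 0 and 1950 in each experiment alone, and anti-TWEAK minus control antibody 351, against 0 and 1873. Cxcl9 lies near the floor in some mice, where changes are understated.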
